A study of Mus musculus with 24 samples.

Results

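The comparison described here set TRIM28 knockout (KO) CD4 T cells against wild-type (WT) littermate cells after 72 h of stimulation, with 3 arrays in each group. These 6 arrays are part of a mouse microarray series of 24 arrays in 8 groups, which also has both genotypes at 0, 4 and 24 h. All groups began as naive CD4 T cells that were enriched on magnets and then sorted, and the stimulated ones received anti-CD3 bound to the plate together with anti-CD28 in solution. The 6 arrays were taken by genotype and time from their titles, and 22180 named genes were compared, each through the probe set with the highest mean. The labels do not say which Cre or other agent removed Trim28, how old the mice were, which gate was used in the sort or how array numbers relate to animals, and so the p-values below measure the spread between arrays.

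TRIM28 (also called KAP1) is a co-repressor that KRAB zinc finger proteins bring to DNA, where it recruits the histone methyltransferase SETDB1 and heterochromatin proteins and silences retrotransposons and some genes. In T cells it has been studied for its part in activation and in restraining T cells that produce inflammatory cytokines. Stimulation through CD3 and CD28 starts growth and division, and over the following days the cells can take on effector programmes: T-bet (Tbx21) and eomesodermin (Eomes) drive the T helper 1 and cytotoxic programme, and FOXP3 defines regulatory T cells. Interferons act through STAT and IRF factors to switch on a set of antiviral genes through a promoter element, the interferon-stimulated response element.

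Levels are the authors' log2 intensities, on which a difference of 1 is a 2-fold change. Trim28 itself measured 5.80, 5.19 and 5.65 on the KO arrays, against 8.78, 8.57 and 8.55 on the WT arrays. The groups did not overlap, and Trim28 was 8.5-fold lower in KO cells (log2 change -3.09, SE 0.127, adjusted p = 3.46e-15). Whether the probes lie inside the deleted part is not known, so the loss on the array checks the labels without showing how much protein was lost. Arrays of 1 genotype at 72 h correlated at 0.996 to 0.9967 and arrays of different genotypes at 0.9903 to 0.9922. Tests were made with limma over all arrays, and adjusted p-values are Benjamini-Hochberg values over all genes tested. In both genotypes array 3 differed from arrays 1 and 2 in sex-linked genes: Xist measured 10.21, 10.09 and 3.39 in KO cells, against 10.25, 10.29 and 3.44 in WT cells, and the Y-linked Eif2s3y was high on array 3 alone. Each genotype therefore holds the same mix. Precision is limited by having 3 arrays a group, and in bulk RNA fewer cells of a type and less RNA per cell cannot be told apart.

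At 72 h the KO cells differed from the WT cells in 1405 genes at an adjusted p below 0.05, which is 6.33% of the genes tested. Of these, 567 were higher in KO cells (2.56%) and 838 were lower (3.78%). Large changes were mostly losses: 53 genes were at least 2-fold higher and 166 at least 2-fold lower, and 11 were at least 4-fold higher and 31 at least 4-fold lower. The genes at least 2-fold higher had a median WT level of 4.44 and those at least 2-fold lower a median WT level of 6.97, beside 3.71 for all genes. For 5451 genes (24.6%) no KO array lay within the WT range or the reverse, and 1395 of the 1405 were among them. Without KO array 1 the genes higher in KO cells numbered 360, and without WT array 3 they numbered 370.

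The 12 largest losses by the naming rule, after Trim28, held antiviral, chemokine and cytotoxic genes: Mpeg1, Cxcl10, Rsad2, Eomes, Phf11a, Ifi204, Gzmb, Mx1, Perp, Oasl2, Plagl1 and Oasl1, with log2 changes between -3.38 and -2.61. The 12 largest gains were M1ap, Pgpep1l, Ccl22, Ly6d, Otud1, Foxp3, Ly6k, Acadm, Gstt1, Yes1, Abca5 and Vmn2r96, with log2 changes between 3.96 and 1.83. For Plagl1 the mean over the gene's probe sets gave -1.38 in place of -2.62, and for Ly6k it gave 1.24 in place of 2.42.

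**Figure D1:**
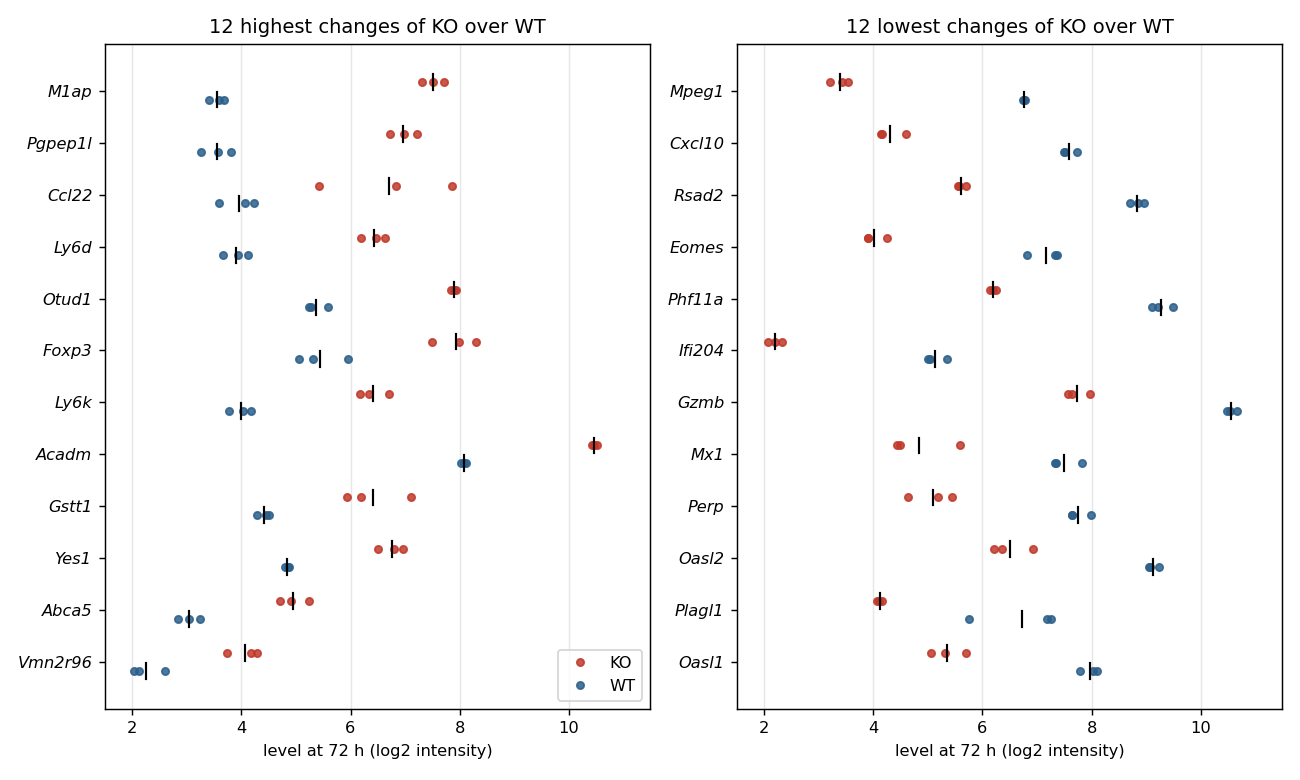
Levels at 72 h (log2 intensity, horizontal axis) of the 12 genes with the highest (left) and the 12 with the lowest (right) change of KO over WT, Trim28 left out. Points are arrays, KO above WT for each gene, and black ticks are means of 3 arrays. Only genes whose groups do not overlap could be chosen, and of those shown Ccl22 has the widest KO spread, 5.42 to 7.87.

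The interferon-stimulated genes made up the group with the clearest change, and the promoters of 4 of them are shown because they hold the letters of the response element that interferon signalling acts on. Each window is 300 bases long, mostly upstream of the gene's start and a little past it, written in the direction of the gene as given by RefSeq on GRCm38.p6. Capitals mark copies of GAAANNGAAA on either strand, a simple form of the interferon-stimulated response element, and copies may overlap. These 4 genes were picked after their values were seen.
Rsad2 promoter, chr12:26456403-26456702, minus strand: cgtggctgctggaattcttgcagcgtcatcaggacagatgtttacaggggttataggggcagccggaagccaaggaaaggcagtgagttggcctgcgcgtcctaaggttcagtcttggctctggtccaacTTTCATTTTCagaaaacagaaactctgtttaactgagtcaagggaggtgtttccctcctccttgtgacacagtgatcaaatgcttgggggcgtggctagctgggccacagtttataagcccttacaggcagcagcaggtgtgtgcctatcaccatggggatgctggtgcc
Cxcl10 promoter, chr5:92348840-92349139, minus strand: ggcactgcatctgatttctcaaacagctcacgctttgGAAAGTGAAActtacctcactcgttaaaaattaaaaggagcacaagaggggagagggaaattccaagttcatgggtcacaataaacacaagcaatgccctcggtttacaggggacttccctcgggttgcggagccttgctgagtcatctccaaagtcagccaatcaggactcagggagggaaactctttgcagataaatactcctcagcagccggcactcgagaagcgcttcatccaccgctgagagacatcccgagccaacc
Isg15 promoter, chr4:156200769-156201068, minus strand: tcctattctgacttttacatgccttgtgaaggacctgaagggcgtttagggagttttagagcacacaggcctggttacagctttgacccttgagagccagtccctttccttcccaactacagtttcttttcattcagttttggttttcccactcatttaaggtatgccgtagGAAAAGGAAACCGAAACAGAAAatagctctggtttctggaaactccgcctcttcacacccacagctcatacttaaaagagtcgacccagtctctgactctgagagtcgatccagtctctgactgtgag
Ifit1 promoter, chr19:34640639-34640938, plus strand: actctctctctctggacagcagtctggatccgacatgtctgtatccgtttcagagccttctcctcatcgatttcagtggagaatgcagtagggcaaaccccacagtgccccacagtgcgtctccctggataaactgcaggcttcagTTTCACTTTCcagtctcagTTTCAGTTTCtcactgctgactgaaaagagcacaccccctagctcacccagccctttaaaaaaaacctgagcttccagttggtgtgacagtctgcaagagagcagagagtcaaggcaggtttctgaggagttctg
Counted from the gene's start, the copy began at -120 in Rsad2 and at -213 in Cxcl10, and the first of 2 copies at -104 in Ifit1. Isg15 had 3 overlapping copies, which form 1 stretch in capitals that begins at -78. Promoter windows were found for 20 of the 29 genes on the interferon-stimulated list, and 13 of their 25 windows (52.0%) held the element, compared with 681 of 20611 windows of all genes tested (3.3%). Among genes lower in KO cells it was found in 71 of 856 windows (8.29%), among those at least 2-fold lower in 30 of 158 (19%), among genes higher in KO cells in 12 of 576 (2.08%), and among those at least 2-fold higher in 5 of 52 (9.62%). A match of these letters is a description of the window and not a binding site.

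Rsad2, which encodes the antiviral enzyme viperin, measured 5.55, 5.58 and 5.69 in KO cells, against 8.71, 8.85 and 8.95 in WT cells. It was 9.4-fold lower in KO cells (log2 change -3.23, SE 0.165, adjusted p = 2.05e-13), and every KO array lay far below every WT array. Mx1, a GTPase that blocks viral replication, measured 4.49, 4.43 and 5.58 in KO cells, against 7.35, 7.83 and 7.33 in WT cells, a 6.36-fold lower level (adjusted p = 6.05e-10); RefSeq lists it as a transcribed pseudogene in the reference strain. Mx2, its relative, was 4.07-fold lower (adjusted p = 4.9e-06). Oasl2 and Oasl1, members of the oligoadenylate synthetase-like family, were 6.15-fold and 6.11-fold lower (adjusted p = 9.28e-09 and 5.99e-09). Isg15, a ubiquitin-like protein joined to other proteins after interferon, measured 8.15, 8.65 and 9.39 in KO cells, against 10.23, 10.26 and 10.17 in WT cells. The 3 KO arrays of Isg15 were spread over more than a log2 unit and the WT arrays were close together, and the gene was 2.81-fold lower in KO cells (adjusted p = 1.72e-06). Ifit1, which binds foreign RNA, measured 7.22, 7.02 and 7.68 in KO cells, against 8.93, 8.93 and 8.96 in WT cells, 3.1-fold lower (adjusted p = 3.65e-06).

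Of 29 measured interferon-stimulated genes, 27 were lower in KO cells and 0 higher, of which 18 were at least 2-fold lower. The median log2 change of the list was -1.16, beside 0.00994 for all genes. The genes of the list that did not pass the test were Ifit2 (-0.38, adjusted p = 0.164) and Ifit3 (-0.12, adjusted p = 0.903). The mean level over the list was 6.82, 6.91 and 7.24 on the KO arrays, against 8.29, 8.31 and 8.34 on the WT arrays. Leaving out 1 array at 72 h gave 23 to 27 genes lower. The sensors of viral nucleic acid Ifih1 (MDA5) and Zbp1 were 3.44-fold and 2.92-fold lower. Sorted into families by symbol, 7 of 10 Gbp genes (interferon-induced GTPases), 5 of 10 Irf genes, 4 of 9 Oas genes and 6 of 14 Ifi genes were lower (3.78% of all genes were), and 1 Ifi gene, Ifi27, was higher (0.68). Many of these families are close paralogs, and probes may read more than 1 of them.

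Upstream of these genes, the interferon genes themselves and their signal transducers were set apart in a list made after the values were seen. Ifnl3, a type III interferon, measured 3.43, 3.75 and 3.64 in KO cells, against 5.26, 5.63 and 6.31 in WT cells. It was 4.35-fold lower in KO cells (log2 change -2.12, SE 0.203, adjusted p = 4.07e-08), and its WT arrays differed among themselves by about a log2 unit. Ifnl2 was 2.02-fold lower (adjusted p = 0.000213). Ifnb1, the gene of interferon beta, measured 2.60, 2.60 and 2.64 in KO cells, against 3.49, 3.76 and 3.27 in WT cells, both near the bottom of the array's range (log2 change -0.89, adjusted p = 2.12e-06). Ifna1, Ifna2, Ifna4 and Ifna6 were lower by 0.95, 0.81, 0.77 and 0.72 on the log2 scale; the Ifna genes are near-identical copies and their probes may not tell them apart. Among the transducers, Stat2 was 2.06-fold lower, Irf7 2.59-fold lower and Irf9 1.46-fold lower, and Irf1 was 1.47-fold lower. Of the receptor chains, Ifnar2 was 1.2-fold lower (adjusted p = 0.0472), Ifnar1 gave -0.01, and both chains of the interferon gamma receptor were higher in KO cells, Ifngr1 by 0.58 and Ifngr2 by 0.45. Over the list of 32, 14 genes were lower and 2 higher, beside 3.78% lower and 2.56% higher of all genes. Because the list was made with the values known, these counts describe its members alone.

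The KO and WT cells parted on these genes between 24 and 72 h. In KO cells 24 of the 29 interferon-stimulated genes were higher at 72 h than at 24 h, with a median step of 1.67, and in WT cells 28 were, with a median step of 3.26; of all genes, 9.63% were higher at 72 h than at 24 h in KO cells and 11.6% in WT cells. At 24 h the list leaned the other way: 7 genes were higher and 1 lower in KO cells, and the median change was 0.24, beside 3.9% higher and 7.38% lower of all genes. The difference between the KO over WT changes at 72 h and 24 h passed the test in the downward direction for 25 of the 29, against 4 h for 26 and against 0 h for 19, beside 3.56%, 3.92% and 2.86% of all genes. At 0 h, before stimulation, 1 of the 29 was higher and 1 lower (1.76% and 0.577% of all genes).

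Of the genes named, Usp18 had the lowest difference against 24 h, -4.11. It encodes the protease that removes ISG15 from proteins and that also restrains signalling from the type I interferon receptor. Before stimulation Usp18 measured 9.83 ± 0.04 in KO cells and 8.95 ± 0.20 in WT cells (mean ± SD, n = 3 each). After 4 h the KO cells measured 8.20 ± 0.21, against 5.09 ± 0.11 in WT cells, and after 24 h 7.90 ± 0.48, against 5.04 ± 0.01. At 72 h it measured 9.51, 9.37 and 9.80 in KO cells, against 10.84, 10.70 and 10.91 in WT cells. The KO cells thus stood above the WT cells at 0, 4 and 24 h (log2 changes 0.88, 3.11 and 2.85) and below them at 72 h (-1.25, adjusted p = 2.16e-06). Rsad2 was at 4.33 ± 0.07 in KO cells and 4.47 ± 0.23 in WT cells at 24 h, and its change of -0.13 there did not pass the test. The interferon-inducible PYHIN genes Ifi208, Ifi209 and Ifi213, whose proteins bind DNA, also changed sides: they were higher in KO cells by 2.19, 2.04 and 1.94 at 24 h and lower by 1.83, 1.40 and 1.49 at 72 h.

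**Figure D2:**
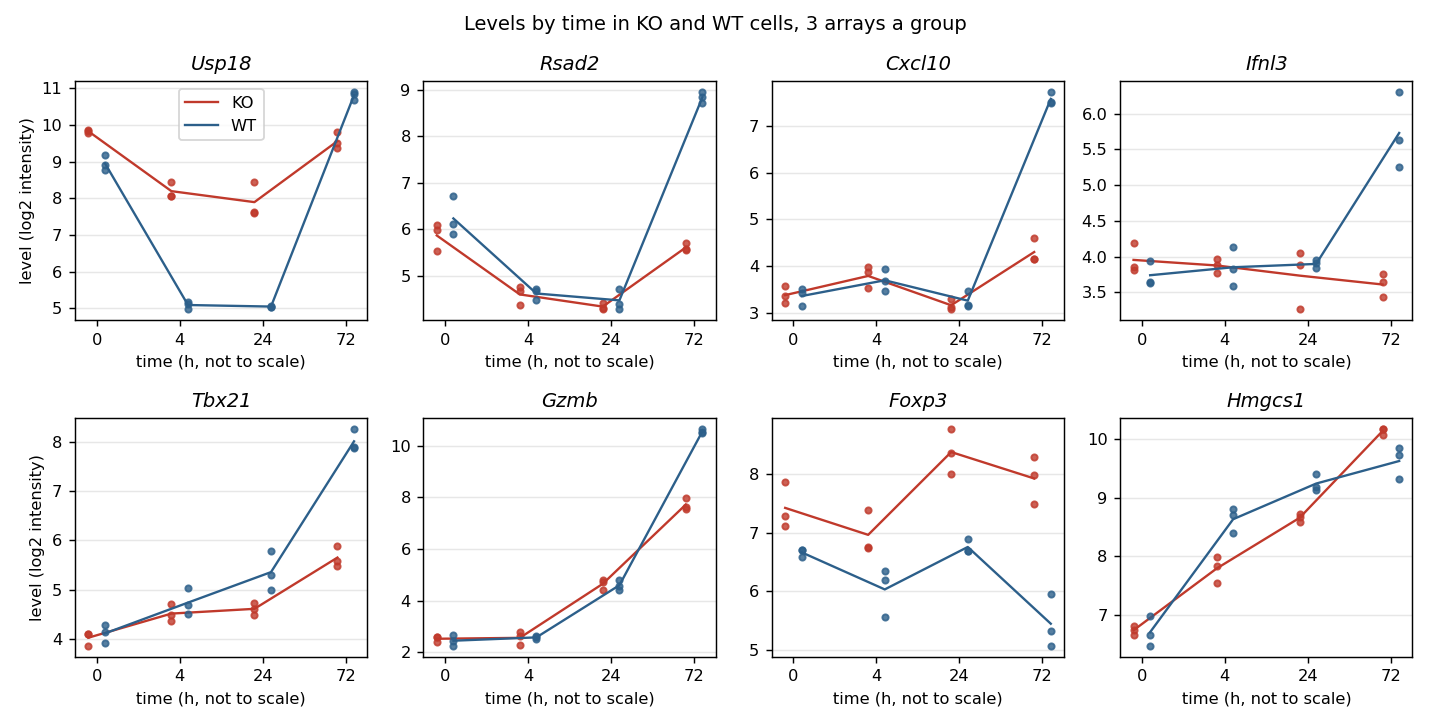
Levels (log2 intensity, vertical axis, scaled for each gene) at 0, 4, 24 and 72 h in KO (red, left) and WT (blue, right) cells; points are arrays and lines join the means of 3 arrays. Usp18 is higher in KO cells through 24 h and lower at 72 h, and Rsad2, Cxcl10, Ifnl3 and Gzmb part at 72 h. Foxp3 lies higher in KO cells with no overlap at 0, 4, 24 and 72 h, though its change at 0 h did not pass the test.

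T helper 1 genes were lower in KO cells as well, with the transcription factors of the programme among the largest losses. Of 18 measured, 11 were lower and 2 higher, beside 3.78% lower and 2.56% higher of all genes, and the median change was -0.60. Without KO array 3, WT array 1 or WT array 3 the count lower was 7, and the count higher was 1 without any of 5 arrays, all but KO array 3. Tbx21 (T-bet), the factor that defines the programme, measured 5.49, 5.59 and 5.88 in KO cells, against 8.26, 7.87 and 7.88 in WT cells, a 5.10-fold lower level (SE 0.171, adjusted p = 2.99e-10). Eomes, the related factor of cytotoxic and memory cells, measured 3.89, 4.24 and 3.91 in KO cells, against 7.32, 7.36 and 6.82 in WT cells, 8.89-fold lower (adjusted p = 1.29e-12). Il12rb2, the receptor chain that makes cells respond to IL-12, measured 7.83, 8.27 and 8.03 in KO cells, against 10.60, 10.57 and 10.40 in WT cells, 5.58-fold lower (adjusted p = 9.05e-10). For each of these 3 genes every KO array lay more than a log2 unit below every WT array. Ifng, the programme's cytokine, measured 4.18, 4.13 and 3.95 in KO cells, against 5.19, 5.15 and 4.71 in WT cells, 1.91-fold lower (adjusted p = 2.26e-05). Runx3, which works with T-bet, was 1.72-fold lower. The 2 members that were higher, Ifngr1 and Ifngr2, form the receptor for interferon gamma. Tnf (-0.30, adjusted p = 0.0654) and Cxcr3 (0.08, adjusted p = 0.89) did not pass the test.

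Several cytotoxic genes were lower too. Gzmb, the granzyme of the cytotoxic granule, measured 7.63, 7.57 and 7.97 in KO cells, against 10.67, 10.48 and 10.53 in WT cells, 7.15-fold lower (log2 change -2.84, SE 0.144, adjusted p = 1.99e-13). At 24 h Gzmb was at 4.65 ± 0.20 in KO cells and 4.60 ± 0.19 in WT cells (SD, n = 3 each), so the level was higher at 72 h in both genotypes and by less in KO cells. Nkg7, a granule membrane protein, was 3.82-fold lower, Serpinb9, which inhibits granzyme B, 2.62-fold lower, and Fasl 1.67-fold lower. Ly6c2 was 3.31-fold lower at 72 h and higher by 1.47 at 24 h, and shares sequence with Ly6c1. Of 28 effector, memory and cytotoxic genes, 7 were lower and 0 higher, with a median change of -0.12. Of all genes, 3.78% were lower and 2.56% higher. Prf1 (perforin) gave -0.20 (adjusted p = 0.827) and Gzma 0.06. Markers of CD8 T cells moved alongside: 4 of 7 were lower in KO cells, namely Eomes, Crtam (-1.05), Cd8b1 (-0.65) and Klrk1 (-0.63), the call for Klrk1 being lost without KO array 1 or without WT array 1, where its change was -0.34. The mean level over all 7 markers, Eomes included, was 3.97 to 4.18 on the KO arrays, against 4.77 to 4.94 on the WT arrays. The median change of the 7 was -0.63. The defining marker Cd8a was low in both, at 3.23, 3.06 and 2.92 in KO cells and 3.25, 3.36 and 3.09 in WT cells, and the NK marker Ncr1 gave 0.08. The part of CD8 cells in these losses was not tested beyond these values.

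Mpeg1, which encodes the pore-forming protein perforin-2 and is best known from macrophages, had the largest loss. It measured 3.53, 3.20 and 3.43 in KO cells, against 6.77, 6.77 and 6.74 in WT cells, 10.4-fold lower (adjusted p = 1.58e-14). Cd68 was the other myeloid marker that fell (-0.58, adjusted p = 0.000488), 2 of 23 in all, beside 3.78% of all genes. The defining myeloid markers lay low in both genotypes, with Lyz2 at 2.80, 2.91 and 3.51 in KO cells, against 2.72, 3.01 and 3.29 in WT cells, and with log2 changes of -0.06 for Csf1r and -0.01 for Itgam. The mean over the list, Mpeg1 included, was 3.18 to 3.25 on the KO arrays, against 3.33 to 3.43 on the WT arrays. The list's median change was 0.04, and 13 of its 23 changes were above 0, beside 11757 of all 22180.

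Among chemokines and cytokines, losses again outnumbered gains, 11 to 3 of 41 measured, beside 3.78% lower and 2.56% higher of all genes. Cxcl10, the chemokine induced by interferon that draws CXCR3-bearing cells, measured 4.15, 4.15 and 4.60 in KO cells, against 7.50, 7.52 and 7.73 in WT cells. It was 9.74-fold lower in KO cells (SE 0.152, adjusted p = 2.67e-14), while its chromosomal neighbours Cxcl9 (0.08) and Cxcl11 (-0.24) did not pass the test. Il6 was 3.93-fold lower and varied on the KO arrays, at 3.41, 4.65 and 4.15, against 5.77, 6.10 and 6.27 in WT cells. Ccl5, made by effector and memory T cells, was 2.95-fold lower, and Penk, which encodes an opioid peptide precursor, 2.08-fold lower. Nos2, the inducible nitric oxide synthase, named after its values were seen, measured 3.73, 3.83 and 3.75 in KO cells, against 6.24, 6.23 and 6.43 in WT cells, 5.78-fold lower (adjusted p = 2.36e-14). Ccl22, which draws CCR4-bearing cells, went up: it measured 7.87, 5.42 and 6.83 in KO cells, against 4.07, 3.59 and 4.22 in WT cells, 6.69-fold higher (log2 change 2.74, SE 0.461, adjusted p = 0.000201). The B cell genes Cd79a and Ms4a1 had the same order over the KO arrays, highest on array 1 and lowest on array 2, with Cd79a at 5.46, 3.96 and 5.12 in KO cells against 3.94, 3.52 and 3.92 in WT cells, and their part in the Ccl22 value was not tested. Ltb (lymphotoxin beta) and Tgfb1 were higher by 0.95 and 0.44. Il2 itself measured 10.46, 10.28 and 10.21 in KO cells, against 10.48, 10.18 and 10.14 in WT cells, a change of 0.04 (SE 0.178, adjusted p = 0.972), whereas at 24 h it had been lower in KO cells by 2.0; the difference between the times was 2.04. Ccl3 and Il1a gave 0.02 and 0.14 at 72 h, against losses of 1.77 and 3.25 at 24 h.

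**Figure D3:**
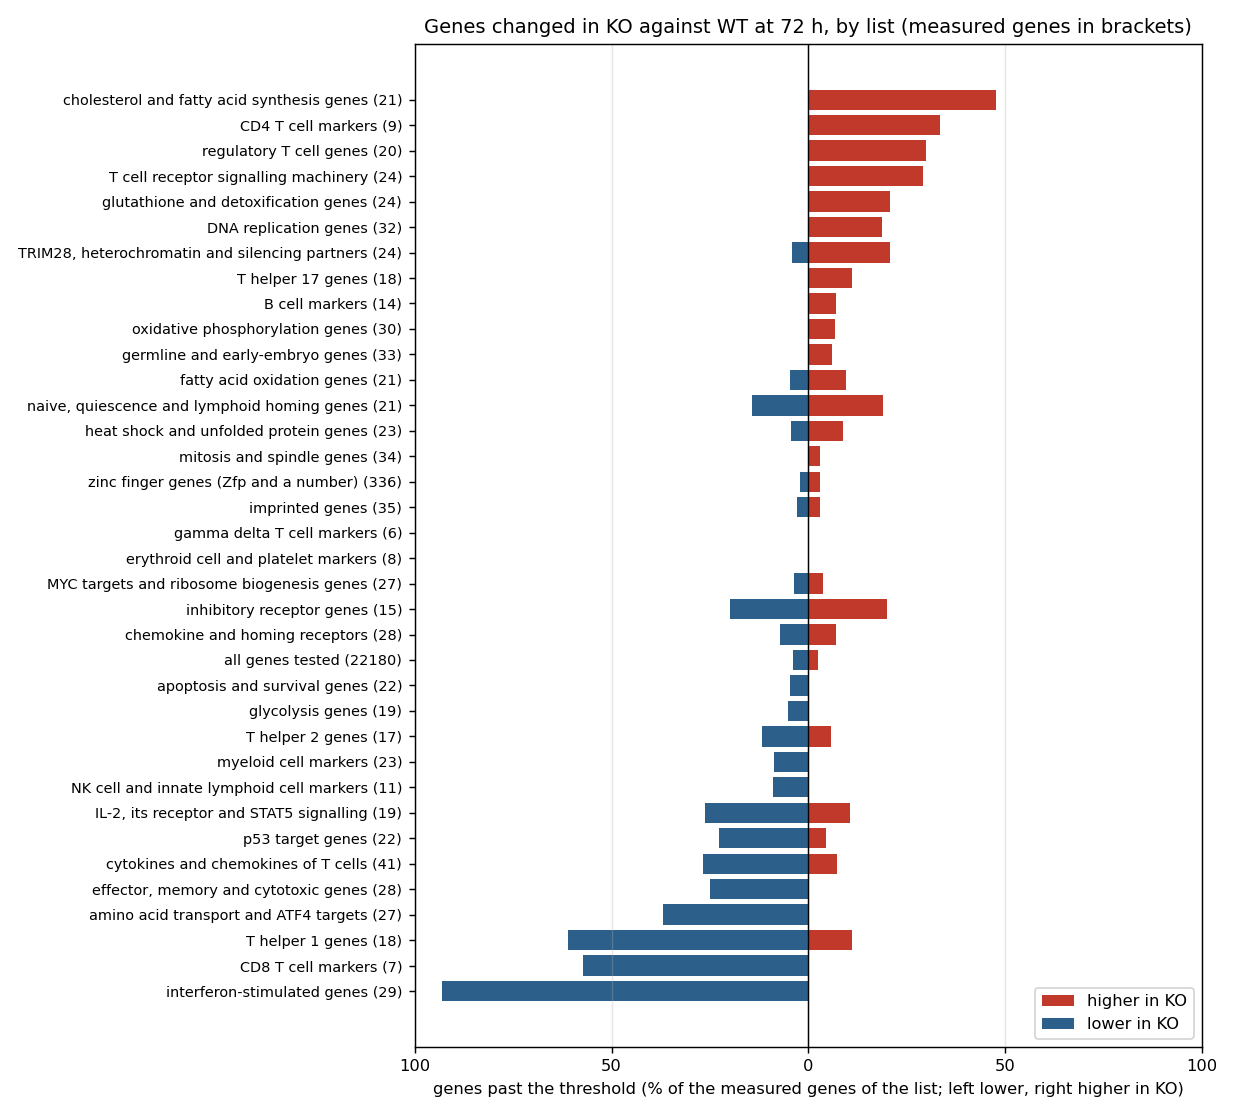
Share of each list's measured genes (%, horizontal axis) that were higher (red, right) or lower (blue, left) in KO than in WT cells at 72 h, with the number measured in brackets and the lists ordered by the balance. Interferon-stimulated genes lie at the bottom with 27 of 29 lower, and cholesterol and fatty acid synthesis genes at the top with 10 of 21 higher; the bar for all genes tested gives the background.

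Several regulatory T cell genes went the other way. Foxp3, the factor that defines these cells, measured 8.30, 7.50 and 7.99 in KO cells, against 5.32, 5.06 and 5.95 in WT cells, with the lowest KO array above the highest WT array. It was 5.61-fold higher in KO cells (log2 change 2.49, SE 0.242, adjusted p = 5.3e-08). The order of the KO arrays was that of Ccl22 and of the B cell markers, which was not tested. Foxp3 averaged 7.43 ± 0.40 in KO cells and 6.66 ± 0.07 in WT cells before stimulation (0.76, adjusted p = 0.11). It averaged 6.96 ± 0.36 in KO cells and 6.03 ± 0.42 in WT cells after 4 h (0.93), then 8.38 ± 0.39 in KO cells and 6.76 ± 0.12 in WT cells after 24 h (1.63; SD, n = 3 each), and both changes passed the test. Lrrc32 (GARP), which anchors latent TGF-beta on regulatory cells, was 3.27-fold higher, Gpr83 2.6-fold higher, Izumo1r (folate receptor 4) 1.75-fold higher and the inhibitory receptor Ctla4 1.46-fold higher. In all 6 of 20 measured genes were higher and 0 lower at 72 h, beside 2.56% and 3.78% of all genes. The median change of the list was 0.097, and 12 of its 20 changes were above 0, beside 11757 of all 22180. Earlier counts for the list were 9 higher and 0 lower before stimulation (median 0.36), 7 higher and 1 lower at 4 h (median 0.22), and 7 higher and 0 lower at 24 h (median 0.26). Of all genes, 1.76% were higher before stimulation, 3.3% at 4 h and 3.9% at 24 h. Other defining members did not pass: Il2ra (CD25) gave 0.09 (adjusted p = 0.867), Ikzf2 (Helios) -0.48 (adjusted p = 0.107) and Nrp1 1.0 (adjusted p = 0.113). The share of FOXP3-bearing cells was not measured.

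Of genes of other helper fates, 3 of 17 T helper 2 genes and 2 of 18 T helper 17 genes passed the test, beside 6.33% of all genes. Of the T helper 2 genes, Nfil3 was 2.56-fold lower, Il24 1.47-fold lower and Ccr4 1.70-fold higher. The Il24 call was lost after quantile normalization and without KO array 1, KO array 3 or WT array 2. Gata3 gave 0.06, Il4 -0.07 and Il13 0.16, none past the test. Both T helper 17 genes that passed, Ccr6 and Il6st, were higher, and Il17a (0.04) and Il17f (-0.03) did not pass the test. Ccr6, a homing receptor of such cells, measured 5.64, 5.67 and 5.29 in KO cells, against 3.81, 4.07 and 3.88 in WT cells, 3.06-fold higher (adjusted p = 1.92e-09), and was past the threshold at no other time. Of 15 inhibitory receptor genes, Pdcd1 (PD-1), Vsir (VISTA) and Ctla4 were higher by 0.72, 0.71 and 0.55, and Lag3, Cd274 and Havcr2 were lower by 0.73, 0.37 and 0.34, the Cd274 call being lost when any array other than KO array 1 was left out. Of 21 naive and quiescence genes 4 were higher and 3 lower, led by Il7r, the IL-7 receptor chain, at 6.42, 6.21 and 6.40 in KO cells against 7.40, 7.54 and 7.46 in WT cells (2.18-fold lower, adjusted p = 0.00112).

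The T cell receptor machinery was slightly higher in KO cells for 7 of 24 genes and lower for 0, with a median change of 0.10. The counts of this paragraph stand beside 2.56% higher and 3.78% lower of all genes. Zap70, the kinase that docks on the receptor, was higher by 0.49 (SE 0.063, adjusted p = 4.95e-06), Ubash3a, a negative regulator, by 0.52, and the CD3 chains Cd3d, Cd3e and Cd3g by 0.37, 0.35 and 0.30. Cd4 measured 10.95, 10.73 and 10.77 in KO cells, against 10.66, 10.68 and 10.75 in WT cells, a change of 0.12 that did not pass (adjusted p = 0.427). Of 19 genes of IL-2 and STAT5 signalling, 5 were lower, among them Osm (-0.70), Lif (-0.62), Ccnd3 (-0.48) and Ptpn2 (-0.45), and 2 were higher, Bcl6 (0.54) and Pim2 (0.32). Il2rb gave 0.08 (adjusted p = 0.86).

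Of the metabolic lists, cholesterol and fatty acid synthesis stood out. At 72 h 10 of 21 genes were higher in KO cells and 0 lower, all 21 changes were positive, and the median was 0.38. Of all 22180 genes, 2.56% were higher and 3.78% lower, and 11757 had a positive change. Without KO array 3 or WT array 3 the count higher on the list was 6, and with arrays 1 and 2 alone it was 4. Elovl6, which lengthens fatty acids, measured 8.87, 8.75 and 8.77 in KO cells, against 7.86, 7.97 and 7.88 in WT cells, 1.86-fold higher (adjusted p = 2.22e-06). Fasn, the fatty acid synthase, was 1.58-fold higher, and the sterol enzymes Nsdhl, Lss and Mvd were 1.6-fold, 1.55-fold and 1.52-fold higher. Hmgcs1, at the entry of the mevalonate pathway, measured 10.07, 10.18 and 10.17 in KO cells, against 9.73, 9.85 and 9.31 in WT cells (0.51, adjusted p = 0.0146). The regulators Srebf2 (0.04) and Srebf1 (0.15) did not pass the test. Earlier the list had leaned the other way, with 8 genes lower and 0 higher at 24 h and 12 lower and 0 higher at 4 h. Of all genes, 7.38% were lower at 24 h and 0.834% at 4 h. The change at 72 h was above that at 24 h for 15 of 21 genes by the test of the difference (4.9% of all genes) and above that at 4 h for 16 (1.37% of all genes). The median step between 24 and 72 h was 1.09 in KO cells and 0.39 in WT cells.

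**Figure D4:**
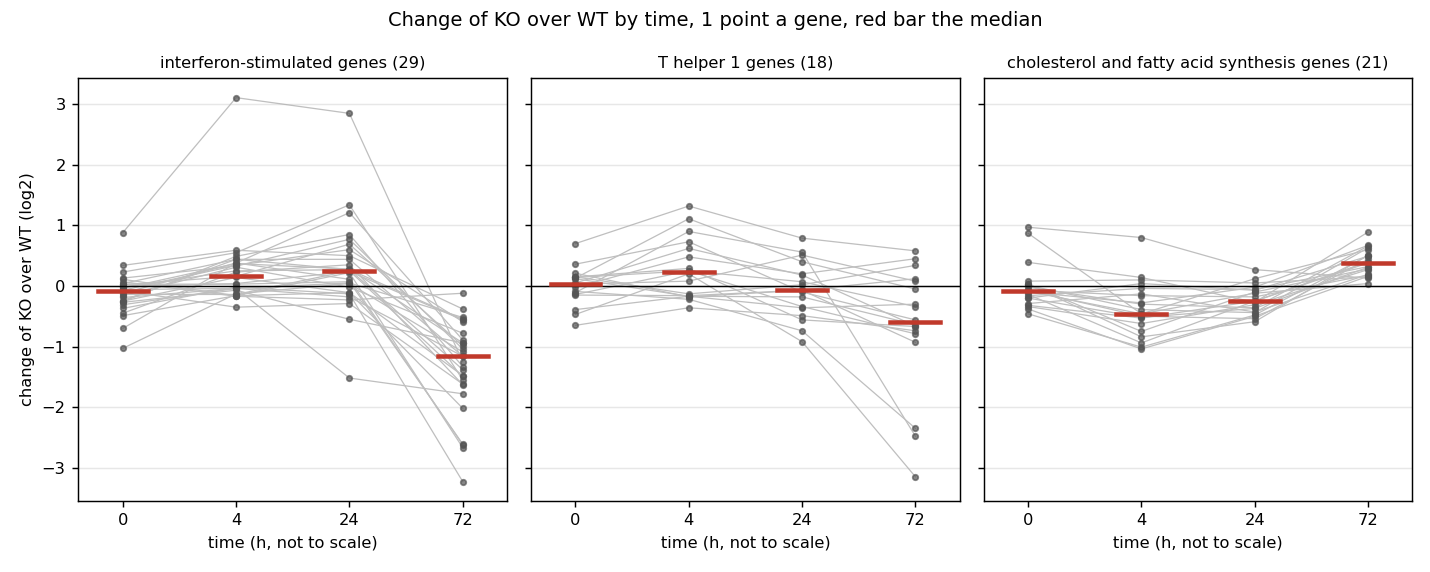
Change of KO over WT (log2, vertical axis) at 0, 4, 24 and 72 h for 3 lists, with 1 grey point and line for each gene and a red bar at the list's median. The medians at 72 h are -1.16 for interferon-stimulated genes, -0.60 for T helper 1 genes and 0.38 for cholesterol and fatty acid synthesis genes, and at 24 h 0.24, -0.07 and -0.25.

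The log2 change at 72 h was above 0 for 24 of 27 MYC target and ribosome biogenesis genes (median 0.106) and 27 of 32 DNA replication genes (median 0.188). It was above 0 for 32 of 34 mitosis genes (median 0.166). These counts hold genes whether or not they passed the test, and 11757 of all 22180 genes had a change above 0. The KO and WT arrays had no overlap for 14, 24 and 21 genes of these lists, beside 24.6% of all genes. Of the MYC and ribosome genes, 24 had been lower in KO cells at 24 h, beside 7.38% of all genes. At 72 h 1 was higher (Cad, 0.36, lost without KO array 1 or WT array 3). At that time 1 was lower (Polr1a, -0.28, lost when any of the 6 arrays was left out). The test of the difference passed upward for 18, beside 4.9% of all genes. Between 24 and 72 h 7 of the MYC and ribosome genes fell in KO cells and 23 in WT cells, beside 8.04% and 15.8% of all genes. Myc measured 10.36, 10.13 and 10.25 in KO cells, against 10.42, 10.45 and 10.43 in WT cells (-0.19, adjusted p = 0.297). Of 32 DNA replication genes 6 were higher (2.56% of all genes were) by at most 0.33, among them the helicase subunits Mcm2, Mcm7 and Mcm4, but the count was 0 without KO array 1, 2 without KO array 3 or WT array 1, and 1 without WT array 3. Of 34 mitosis genes 1 was higher, Cdc25b, the phosphatase that activates CDK1, which measured 8.06, 7.89 and 7.81 in KO cells, against 6.37, 6.52 and 6.23 in WT cells (2.91-fold, adjusted p = 6.66e-06). Mki67 gave 0.17 (adjusted p = 0.623). Glycolysis had 0 genes higher and 1 lower of 19, and oxidative phosphorylation 2 higher and 0 lower of 30. Fatty acid oxidation had 2 higher, Acadm and Acaa2 (0.87), and 1 lower, Eci2 (-0.45, lost without KO array 3, WT array 2 or WT array 3), of 21. Counts of called genes at 72 h in this paragraph stand beside 2.56% higher and 3.78% lower of all genes.

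Of 27 genes of amino acid transport and targets of the stress factor ATF4, 10 were lower and 0 higher, with a median of -0.30. The count lower was 4 without WT array 3 and 3 with arrays 1 and 2 alone. The counts of this paragraph stand beside 3.78% lower and 2.56% higher of all genes. Vldlr, a lipoprotein receptor, was 2.6-fold lower, the cystine transporter gene Slc7a11 2.17-fold lower and the cysteine-forming enzyme gene Cth 1.91-fold lower, and Atf4 itself gave -0.05 (adjusted p = 0.914). The mean of all probe sets gave -0.60 for Slc7a11 in place of -1.12. Of 22 p53 target genes 5 were lower, led by Perp, a membrane protein of the tetraspan type, at 5.19, 5.44 and 4.64 in KO cells against 7.64, 7.99 and 7.63 in WT cells (6.36-fold lower, adjusted p = 6.38e-12), and by the kinase gene Plk2 (3.85-fold lower). Cdkn1a (p21) was 1.56-fold lower, a call that was lost without KO array 1, and Fas 1.67-fold lower. Sesn1 was higher by 0.31.

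The genes at least 2-fold higher had a median WT level of 4.44, beside 7.25 for all genes called higher and 3.71 for all genes. Among those that rose furthest, Ly6d and Ly6k lie near each other, and Gstt1 lies beside related genes that were also higher. M1ap, a gene named for meiosis, measured 7.32, 7.71 and 7.50 in KO cells, against 3.68, 3.40 and 3.58 in WT cells, 15.5-fold higher (log2 change 3.96, SE 0.130, adjusted p = 1.99e-17). Its change was 0.01 at 0 h, 0.36 at 4 h and 2.56 at 24 h. Pgpep1l, a relative of pyroglutamyl peptidase, was 10.7-fold higher at 72 h and had been higher at every earlier time. Ly6d and Ly6k, GPI-anchored surface protein genes 2 places apart on chromosome 15, were 5.77-fold and 5.34-fold higher. Acadm, the mitochondrial medium-chain acyl-CoA dehydrogenase, was already well expressed and was 5.24-fold higher, at 10.47, 10.42 and 10.51 in KO cells against 8.12, 8.08 and 8.03 in WT cells (SE 0.0723, adjusted p = 5.07e-18); its neighbour Rabggtb was higher by 0.58. Otud1, a deubiquitinase gene, measured 7.83, 7.93 and 7.90 in KO cells, against 5.58, 5.23 and 5.27 in WT cells, 5.76-fold higher. Yes1, a Src-family kinase gene, and Abca5, a lipid transporter gene, were 3.78-fold and 3.76-fold higher, and the pheromone receptor gene Vmn2r96 was 3.55-fold higher from a very low level, 4.29, 4.18 and 3.73 in KO cells against 2.02, 2.59 and 2.12 in WT cells.

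On chromosome 10 the theta-class glutathione transferase genes, whose enzymes join glutathione to foreign compounds, were higher as a block. Gstt1 measured 7.11, 6.20 and 5.93 in KO cells, against 4.50, 4.29 and 4.45 in WT cells (3.99-fold, adjusted p = 0.0077, and adjusted p = 0.0752 without KO array 1). Gstt4, Gstt3 and Gstt2 were 2.41-fold, 2.26-fold and 1.55-fold higher, and Ddt next to them was higher by 0.93. Together with Gsr these Gstt genes were all 5 past the threshold among 24 glutathione and detoxification genes, beside 6.33% of all genes. Losses clustered too: Cmpk2 next to Rsad2 on chromosome 12 was lower by 2.11, Phf11 and Phf11b next to Phf11a on chromosome 14 were lower by 1.79 and 1.01, and Oasl1 lies beside Oasl2 on chromosome 5. Of 48 genes at least 2-fold higher that could be placed, 17 (35.4%) had a gene called higher among the 2 on either side, compared with 9.83% of all genes placed. Of 158 at least 2-fold lower, 67 (42.4%) had a gene called lower there, compared with 14.0%. Neighbours can share probes or sequence, so these shares describe the arrangement.

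Of the partners of TRIM28 in silencing, those that passed the test were higher. Setdb1, the histone H3 lysine 9 methyltransferase recruited by TRIM28, measured 9.44, 9.44 and 9.42 in KO cells, against 7.99, 8.05 and 7.98 in WT cells, 2.69-fold higher (SE 0.0661, adjusted p = 2.66e-14). Its arrays hardly varied within a group, and its change had been 0.12 at 0 h, 0.29 at 4 h and 0.72 at 24 h. Trim24, a relative of TRIM28, was higher by 0.49 at 72 h and by 2.35 at 0 h, and the deacetylase gene Hdac1 was higher by 0.41. Chd3 (0.26) and Cbx3 (0.25), for the NuRD remodeller and heterochromatin protein 1 gamma, passed narrowly (adjusted p = 0.042 and 0.0496). Each call was lost without KO array 1, 2 or 3 or WT array 1, and with the mean of the gene's probe sets. The Chd3 call was also lost without WT array 2 and the Cbx3 call without WT array 3. Of 24 genes of the list 5 were higher and Trim28 was the 1 lower. TRIM28 is known to silence classes of genes in embryonic cells, and their counts stand beside 2.56% higher and 3.78% lower of all genes. Of 35 imprinted genes Igf2r was higher (0.37) and Plagl1, a zinc finger growth regulator, lower, at 4.16, 4.07 and 4.11 in KO cells against 5.75, 7.19 and 7.25 in WT cells. Of 33 germline and early-embryo genes M1ap and Tdrd9 were higher, and the change of Tdrd9, 0.58, was a call lost when any of the 6 arrays was left out. Of the 336 numbered Zfp genes, which encode zinc finger proteins, 10 were higher and 7 lower (2.56% and 3.78% of all genes). They were led by Zfp704 (0.90), Zfp53 (0.78), Zfp445 (0.65) and Zfp958 (0.64) upward and Zfp946 (-0.67) downward. The Zfp946 call was lost without KO array 2 or 3 or WT array 2 or 3, and the Zfp958 call without KO array 3 or WT array 3. With arrays 1 and 2 alone Zfp445 kept its call and the others named lost theirs.

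Many of the genes called at 72 h were called at no other time. Of the 567 genes higher in KO cells, 176 (31%) were also higher at 24 h, 68 (12%) were lower there, and 45 were higher at all 4 times; those 45 include Pgpep1l, Ly6d, Yes1, Vmn2r96, Klhl6 (1.63 at 72 h), Gstt1, Gstt3 and Tenm4 (1.13 at 72 h, and 0.43 with the mean of its probe sets, adjusted p = 0.0568). Of the 838 lower genes, 114 (13.6%) were also lower at 24 h, 88 (10.5%) were higher there, and 4 were lower at all 4 times. At no other time in either direction were 264 of the higher genes (46.6%) and 579 of the lower genes (69.1%) past the threshold, and for 40 and 195 of these all 3 tests of the difference against another time also passed. Besides Ccr6, the largest gains past the threshold at 72 h alone were Ankrd45 (1.46), Armcx4 (1.35), Il1r2 (1.35), Cmss1 (1.24) and Fcrl1 (1.24), of which Il1r2 encodes the decoy receptor for IL-1. The largest such losses were Mpeg1, Cxcl10, Rsad2, Phf11a, Ifi204 and Gzmb. KO against WT changes at different times use different arrays.

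Tested directly, the KO over WT change at 72 h differed from that at 24 h for 1876 genes (8.46%), 1086 upward and 790 downward, and 874 and 958 after a further quantile normalization. Without KO array 1 at 24 h the count upward was 696, and without WT array 3 at 72 h it was 707. Against 4 h, 1173 genes differed (5.29%), 303 upward and 870 downward, and 470 and 679 after quantile normalization. Against 0 h, 868 differed (3.91%), 234 upward (1.06%) and 634 downward, and 398 and 538 after quantile normalization. At the other times 2501 genes differed between KO and WT cells at 24 h (11.3%), 917 at 4 h (4.13%) and 518 at 0 h (2.34%).

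Markers of further cell types showed the following. Of 14 B cell markers 1 was higher, Fcer2a (CD23), at 6.97, 5.57 and 6.06 in KO cells against 4.94, 4.78 and 5.07 in WT cells (1.27, adjusted p = 0.0326), a call lost when any array other than KO array 2 was left out. The mean over the list was 4.29 to 4.85 on the KO arrays, against 4.08 to 4.28 on the WT arrays, and Cd79a gave 1.05 (adjusted p = 0.132). Of 11 NK and innate lymphoid markers Eomes alone was lower, and 0 of 6 gamma delta T cell and 0 of 8 erythroid and platelet markers passed the test in either direction. Of 9 CD4 T cell markers the 3 CD3 chains were higher. These counts stand beside 2.56% higher and 3.78% lower of all genes.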

How the data were processed

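RNA was measured on Affymetrix GeneTitan arrays, 24 in all, of which the 6 at 72 h carry the comparison. Per the submitters' processing notes the authors' deposited log2 values were made with oligo's RMA, run in R 3.1.0, and the notes name no other version. Array medians ranged from 3.59 to 3.76. The table holds 41345 probe sets: 23521 had 1 gene in the platform annotation (23328 matched to RefSeq by Entrez ID), 1814 several and 16010 none listed. Each of the 22180 genes was represented by its probe set of highest mean level across the 24 arrays (1082 genes had a choice).

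From these values limma 3.58.1 (R 4.3.3) fitted 8 group means over the 24 arrays with a variance trend (16 residual degrees of freedom, 24.8 after moderation). Tests were two-sided, at a Benjamini-Hochberg adjusted p of 0.05 over all genes. The difference of the KO over WT change between 72 h and each other time was tested in the same fit. Arrays were grouped by title. The comparison and the gene lists were chosen with earlier results of these data known, and the list of interferon genes and signal transducers was made after the 72 h values were seen.

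Genes were named by rule: Trim28, the 12 highest and 12 lowest changes without overlap, up to 5 called members per list with the largest change, any cell marker, 8 genes that passed the test the same way at every time (those whose smallest change was largest), the 5 highest and 5 lowest for each difference, 6 each way called at 72 h alone, chromosomal neighbours and a set of T cell reference genes. Predicted genes, small RNAs, pseudogenes named -ps and antigen receptor segments were left out. Mx1, listed as a pseudogene without that name, was kept. Other genes are named with their values as members of a list, chosen after these were seen. Alternatives were another choice of probe set, a filter on low levels, quantile normalization, a fit of the compared groups alone, a replicate block, robust and untrended moderation, arrays 1 and 2 alone, and each array left out. The steps were tested on simulated data. Promoters are RefSeq windows on GRCm38.p6; the array values carry no coordinates.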

Additional observations from a re-analysis of the deposited data

Results flagged for a closer look

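The KO over WT change at 72 h differed from that at another time, by the test of the difference itself, for 1876 genes against 24 h, 1173 against 4 h and 868 against 0 h.

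Against 24 h, the lowest differences among the genes named were those of Usp18 (-4.11), Ifi208 (-4.02), Phf11a (-3.62), Ifi213 (-3.44) and Ifi209 (-3.43). Phf11a gave 0.53 at 24 h (adjusted p = 0.0782 by limma) and was lower in KO cells at 72 h. The highest were Il1a (3.39), Il2 (2.04), Ifitm2 (1.91), Ccr6 (1.82) and Ccl3 (1.79). Il1a, which encodes IL-1 alpha, Il2, Ifitm2 and Ccl3 were lower in KO cells at 24 h and did not pass the test at 72 h.

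Against 4 h, the differences were -4.36 for Usp18, -3.62 for Mpeg1, -3.52 for Cacna1b, -3.38 for Cxcl10 and -3.38 for Il12rb2, and upward 3.6 for M1ap, 2.59 for Ccl22, 2.37 for Gpr83, 2.34 for Ccr4 and 1.82 for Ly6k. Cacna1b, a neuronal calcium channel gene, was 3.78 higher in KO cells at 4 h and gave 0.26 at 72 h.

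Against 0 h, the differences were -4.92 for Upk1b, -4.03 for Cacna1b, -3.81 for Snai3, -3.47 for Mpeg1 and -3.3 for Cxcl10, and upward 3.95 for M1ap, 2.63 for Ccl22, 2.47 for Otud1, 2.1 for St6galnac2 and 1.86 for Itgb3. Upk1b and Snai3 were 5.29 and 4.31 higher in resting KO cells, and their changes at 72 h (0.37 and 0.51) did not pass the test. St6galnac2, a sialyltransferase gene, was lower by 0.90 in resting KO cells and higher by 1.2 at 72 h.

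Outside the genes tested, 101 of the 1814 probe sets with several genes differed between KO and WT cells at 72 h (5.57%), 45 higher and 56 lower. Of the 16010 probe sets without a gene listed, 108 did (0.675%), 57 higher and 51 lower.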

How the results depend on the processing

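With arrays 1 and 2 of every group alone, 707 genes differed at 72 h (248 higher and 459 lower in KO cells), 942 in the difference against 24 h (485 upward and 457 downward), 601 against 4 h (112 and 489) and 451 against 0 h (112 and 339); the setting uses fewer arrays. A further quantile normalization gave 1550 genes at 72 h (722 higher and 828 lower), and 470 upward against 4 h and 398 against 0 h. Leaving out 1 array gave 988 to 1143 genes at 72 h (360 to 467 higher and 620 to 676 lower), 1305 to 2086 in the difference against 24 h (696 to 1226 upward and 609 to 860 downward), 950 to 1263 against 4 h (208 to 327 upward and 736 to 956 downward), 671 to 951 against 0 h (172 to 269 upward and 499 to 682 downward), and log2 changes of -3.22 to -2.91 for Trim28. The other settings gave 1250 to 1870 genes at 72 h. Same-numbered KO and WT arrays at 72 h had deviations that correlated at 0.0796, 0.055 and 0.172 over all genes, and at 0.0523, 0.0334 and 0.0271 without sex-linked and low genes, so the numbers were not treated as pairs; each array correlated best with its own number. With the number as a replicate block 1426 genes differed at 72 h (594 higher and 832 lower), 1929 in the difference against 24 h, 1222 against 4 h and 903 against 0 h. Of 131 named genes past the threshold, 90 stayed past it under every alternative that gave a value, and 0 reversed. Interferon-stimulated genes lower in KO cells numbered 23 to 28 over the alternatives, T helper 1 genes lower 7 to 12, and cholesterol and fatty acid synthesis genes higher 4 to 13. The arrays give no calls of signal over background, and genes near the lowest levels are measured with least certainty.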

Other observations

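Families sorted by symbol gave further counts at 72 h. Of 11 Parp genes, whose enzymes attach ADP-ribose to proteins, 5 were lower in KO cells and 1 higher. Of 8 Slfn (Schlafen) genes 3 were lower and 0 higher, and of 6 Stat genes 3 were lower and 0 higher. Adh (alcohol dehydrogenase), Tor and Plekha genes had the same count, 3 lower and 0 higher, of 7, 7 and 8 measured, and of 6 Ccn genes 2 were lower and 0 higher. Of 10 Mcm genes, which include the subunits of the replicative helicase, 4 were higher and 0 lower, of which Mcm2, Mcm4 and Mcm7 did not pass without KO array 1. These families were sorted by symbol among 492 with at least 6 genes, after the values were seen, and of all genes 2.56% were higher and 3.78% lower. Ccrl2, a receptor that binds chemerin, measured 6.64, 6.87 and 7.16 in KO cells, against 8.89, 8.70 and 8.84 in WT cells (log2 change -1.92, adjusted p = 2.04e-09 by limma).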
